A study of Mus musculus with 8 samples.

Results

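The GADD45 genes were examined in the heart ventricle of mouse embryos in which the inner nuclear membrane protein Lem2 (gene symbol Lemd2) was targeted. They were taken as the rows of the deposited table whose symbol is Gadd45a, Gadd45b, Gadd45g or Gadd45gip1, which gave 4 genes of 15358. All 4 passed the filter on low counts, as did 14887 genes of the table. The genes were chosen by their fold changes between the same libraries, Gadd45b and Gadd45g having been among the genes called in an earlier reading of them. Fold changes and calls of these 4 genes are therefore a description of the libraries, and no test is attached to them.

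Whole ventricle was collected at embryonic day 14.5 and its RNA sequenced. The conditional knockout (cKO) embryos are labelled XMLC2V; Lem2 f/f cKO, and they carry a Cre transgene named XMLC2V together with floxed Lem2 alleles. The controls, littermates per the design text of the series, are labelled Lem2 f/f control. The floxed alleles are thus common to both groups, and the labels name no group with the Cre transgene alone. They also do not say which promoter the name XMLC2V stands for, or whether any library pools embryos. Values were available for 4 cKO and 3 control libraries, with 28921922 to 37967877 counts in the cKO and 34667532 to 39351262 in the controls. Control replicate 4 was not analysed here.

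The GADD45 proteins (growth arrest and DNA damage) are small nuclear proteins without enzyme activity of their own that act by binding others. They bind and activate the kinase MAP3K4 upstream of p38 and JNK, bind PCNA, p21 and the CDK1-cyclin B complex, and have been linked to removal of DNA methylation through TET and TDG. Gadd45a is a classic target of p53, Gadd45b responds to NF-kB and TGF-beta signals, and Gadd45g was described as a cytokine-induced gene. Gadd45gip1, also known as Crif1, is not a relative by descent: it encodes a protein that binds GADD45 proteins and is a component of the large subunit of the mitochondrial ribosome.

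The ventricle markers Myl2, Tnnt2 and Nkx2-5 averaged 3377, 3519 and 146.7 CPM in cKO and 3424, 3816 and 148.9 CPM in control libraries. The whole list of 8 ventricular markers had a median log2 fold change of -0.09, with 0 called by edgeR and 2 by DESeq2 (2 had an unadjusted edgeR p below 0.05). Its lowest values were -0.35 (SE 0.081) for Hey2 and -0.25 (SE 0.067) for Irx4, both with each cKO library below each control. The part of these markers in the GADD45 values was not tested. CPM are counts relative to the TMM-scaled library size. Lemd2 itself lay at 18.5, 17.1, 16.3 and 13.7 CPM in cKO libraries and at 36.8, 34.4 and 36.4 CPM in control libraries. The groups did not overlap (exact two-sided permutation test over 35 arrangements, p = 0.0286, the smallest that these libraries allow). All 3 controls and cKO replicates 1 and 2 expressed the Y-linked gene Ddx3y (80.4 and 98.0 CPM in these cKO libraries, 88.0 to 105 CPM in the controls). The cKO replicates 3 and 4 expressed Xist instead (1324 and 1102 CPM), so the groups differ in sex as well as in genotype. The codes F169 and F191 in the titles are not explained by the labels, and each code occurs in both groups.

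Gadd45a lies on chromosome 6 (67035096 to 67037408, minus strand), Gadd45b on chromosome 10 (80930091 to 80932205, plus strand) and Gadd45g on chromosome 13 (51846675 to 51848475, plus strand), in the mm10 coordinates of the table. The GENCODE M21 transcript that matches RefSeq has 4 exons in each of the 3 genes. Their coding parts are of similar length, at 495 bases in Gadd45a, 480 in Gadd45b and 477 in Gadd45g. The 3' UTRs span 566, 561 and 492 bases in the same order. Gadd45gip1 (chromosome 8, 84832282 to 84835483, plus strand) has 2 exons and a coding part of 666 bases, within a transcript of 2494 bases.

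The stretches just upstream of the 3 GADD45 genes are shown because all 3 genes were higher in cKO libraries, and because the matches to binding motifs within them differ from gene to gene. Each is the 250 bases before the RefSeq start (RefSeq, GRCm38.p6), written 5' to 3' on the strand of the gene, with the motif matches found by a search of both strands in capitals. They are chr6:67037408-67037657 on the minus strand, chr10:80929841-80930090 on the plus strand and chr13:51846425-51846674 on the plus strand; the end given for Gadd45a in the table lies a base past its RefSeq end.
Gadd45a: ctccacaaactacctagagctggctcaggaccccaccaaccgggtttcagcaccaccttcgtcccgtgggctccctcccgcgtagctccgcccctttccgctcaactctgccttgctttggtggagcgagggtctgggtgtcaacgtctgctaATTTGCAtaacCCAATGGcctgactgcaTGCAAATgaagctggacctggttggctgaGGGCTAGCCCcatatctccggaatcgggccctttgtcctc
Gadd45b: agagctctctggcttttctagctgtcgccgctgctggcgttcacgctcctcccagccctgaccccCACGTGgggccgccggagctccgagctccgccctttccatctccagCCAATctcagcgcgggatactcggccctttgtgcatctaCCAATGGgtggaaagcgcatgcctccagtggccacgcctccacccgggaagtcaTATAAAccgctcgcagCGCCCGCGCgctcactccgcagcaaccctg
Gadd45g: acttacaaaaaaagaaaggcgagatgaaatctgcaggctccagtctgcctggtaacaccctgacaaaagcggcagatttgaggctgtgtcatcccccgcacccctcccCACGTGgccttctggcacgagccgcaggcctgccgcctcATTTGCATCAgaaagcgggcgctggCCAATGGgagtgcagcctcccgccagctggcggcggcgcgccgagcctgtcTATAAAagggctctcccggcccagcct
Capitals mark matches to the motifs described next, with their letters or, for the p53 half-site, by name.

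A CCAAT box, the site of the factor NF-Y, was present upstream of each of the 3 genes, in all of them followed by GG. It began at position -86 from the start in Gadd45a, -100 in Gadd45b and -78 in Gadd45g, and Gadd45b held another at -139. Of 32851 RefSeq promoter windows, 33.8% held CCAAT and 4.35% held CCAATGG. Gadd45b and Gadd45g each held a TATA box (TATAAA), at -46 and -27, which 12.4% of windows held and Gadd45a did not. Both also held the E-box CACGTG, at -185 and -142, which occurred in 6.02% of windows. The longest stretch in common was of 10 bases for each pair of genes. A stretch of this length was CCCCACGTGG for Gadd45b and Gadd45g (0.11% of windows) and AGCTCCGCCC for Gadd45a and Gadd45b (0.91%). For Gadd45a and Gadd45g it was ATGCAAATGA, on opposite strands (0.237%). Gadd45a and Gadd45b also share GGCCCTTTGT, of equal length, and further ties were not searched for. The stretches were picked from these same windows, and how often a pair of windows shares 10 bases was not measured. Nothing is therefore read from their shares of windows.

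Gadd45a held the octamer ATTTGCA in both orientations, at -97 and -69, and a p53 half-site at -40. Gadd45g held a single octamer at -103, which overlapped its match to the ATF4 composite site (TGATGNAA) at -101. The octamer was found in 3.56% of windows, the ATF4 composite in 3.45% and the p53 half-site in 7.13%. A match to the EGR site GCGNGGGCG at -30 was found upstream of Gadd45b (4.70% of windows). The AP-1 site TGANTCA, which 6.75% of windows held, was not in these 3 windows. Neither was the CRE site TGACGTC (2.78%), the FOXO site GTAAACA (3.17%) or the TEAD site GGAATG (12.6%). Consensus matches to a CArG box (1.47%) or an NF-kB site (3.90%) were not found there either. Introns and sequence farther upstream were not searched, so a motif absent here may still occur elsewhere at these genes. E-box and CCAATGG were added to the search after the sequences had been read. The GC content was 59.2%, 65.2% and 62.0% in Gadd45a, Gadd45b and Gadd45g, against a median of 52.4% over all windows, and the shares given are not matched for it.

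**Figure D1:**
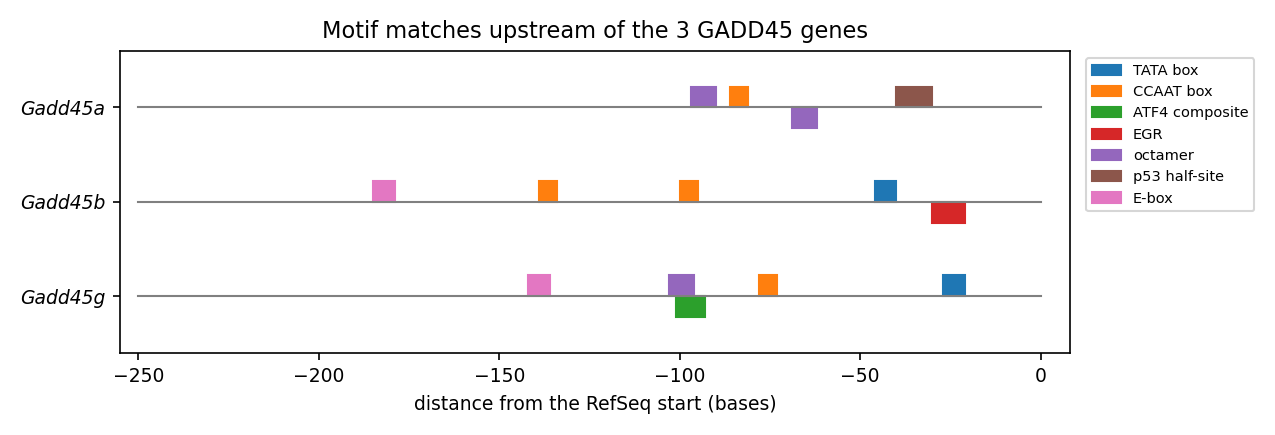
Motif matches in the 250 bases upstream of Gadd45a, Gadd45b and Gadd45g, by distance from the RefSeq start in bases. Boxes above a line are matches on the strand of the gene and boxes below it on the other strand; each gene holds a CCAAT box between -139 and -78, and a TATA box occurs in Gadd45b and Gadd45g.

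Gadd45a, Gadd45b and Gadd45g were each higher in every cKO library than in any control library, by 1.496, 1.856 and 1.664 times in the fit. Gadd45gip1 was at about the same level in both groups, with overlapping libraries. In the edgeR quasi-likelihood fit over all genes (Benjamini-Hochberg adjusted p under 0.05), 3 of the 4 were called higher and 0 lower. Over all genes tested, 1.09% were called, 0.766% higher and 0.322% lower. Each cKO library lay above each control in 8.67% of genes and below each control in 8.28%. Because the choice of genes rests on the same comparison, nothing is read from that count. In bulk tissue, a change in the number of expressing cells and a change in RNA per cell cannot be told apart.

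Gadd45b, the gene first described as Myd118 and a target of NF-kB and TGF-beta signalling, had 31.7, 35.9, 36.2 and 35.3 CPM in cKO libraries, against 17.3, 20.7 and 18.1 CPM in control libraries. The lowest cKO library was thus well above the highest control. It averaged 34.8 ± 2.10 CPM in cKO and 18.7 ± 1.74 CPM in control ventricle (SD, n = 4 and 3). The log2 fold change was 0.89 (SE 0.072), which ranks 62 among 14887 genes. It was called whichever library was left out, with log2 fold changes of 0.84 to 0.97. Within F169 the log2 fold change was 0.86 (SE 0.092), and it was 0.85 (SE 0.090) without the 2 Xist-expressing libraries, with the call kept in both.

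Gadd45g, the cytokine-inducible member also known as CR6, had 24.3, 26.8, 25.2 and 23.0 CPM in cKO libraries, against 17.9, 15.0 and 11.9 CPM in control libraries. The cKO libraries lay close together and the controls were spread out, with control replicate 3, the only F191 control analysed, the lowest. It averaged 24.8 ± 1.57 CPM in cKO and 14.9 ± 3.00 CPM in control ventricle (SD, n = 4 and 3). The log2 fold change was 0.73 (SE 0.117). Without control replicate 3 it was 0.60 (SE 0.088), the lowest of all alternatives, with the call kept. With the title code as a term it was 0.72 (SE 0.085). Its call was lost without cKO replicate 2 (log2 0.70), cKO replicate 3 (0.73) or control replicate 2 (0.74). It was also lost within F169 (0.63), with the sex term (0.78) and without the Xist-expressing libraries (0.78). Because all Xist-expressing libraries are cKO, the sex-term fit and the fit without them estimate the same difference, Y-expressing cKO against control.

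Gadd45a, the p53-responsive founding member, was the least abundant, with 4.50, 4.79, 4.95 and 5.07 CPM in cKO libraries, against 3.40, 3.06 and 3.23 CPM in control libraries. The gap between the groups was wider than the spread within either. The means were 4.83 ± 0.247 CPM in cKO and 3.23 ± 0.167 CPM in control ventricle (SD, n = 4 and 3), for a log2 fold change of 0.58 (SE 0.102). Its call was kept only without cKO replicate 1 (log2 0.61) among the 7 cases with 1 library left out. It was lost without cKO replicate 2 (0.59), 3 (0.57) or 4 (0.56), and without control replicate 1 (0.62), 2 (0.54) or 3 (0.58). Within F169 (0.56) it was not called either. Nor was it with the sex term (0.53) or without the Xist-expressing libraries (0.53), which estimate the same difference.

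Counts of Gadd45a ran from 114.8 to 187.3 per library, so that counting error alone gives a coefficient of variation of 7.89% in cKO and 9.19% in control libraries. The observed values were 5.10% and 5.16%. Gadd45a overlaps E230016M11Rik on the opposite strand over 810 bases, and no source used here gives the strand used in counting. That gene had 8.9 to 16.7 counts per library. How reads in the overlap were assigned is not known, so the level of Gadd45a is uncertain.

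Gadd45gip1, the mitochondrial ribosome component, had 40.8, 46.5, 47.2 and 51.3 CPM in cKO libraries, against 47.0, 38.6 and 47.7 CPM in control libraries. The lowest library of all was a control and the highest a cKO. It averaged 46.5 ± 4.30 CPM in cKO and 44.4 ± 5.02 CPM in control ventricle (SD, n = 4 and 3), with a log2 fold change of 0.07 (SE 0.088). The value ran from -0.03 to 0.12 over all alternatives, so its sign is not settled. Its level is uncertain to the extent that the strand used in counting is unknown.

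**Figure D2:**
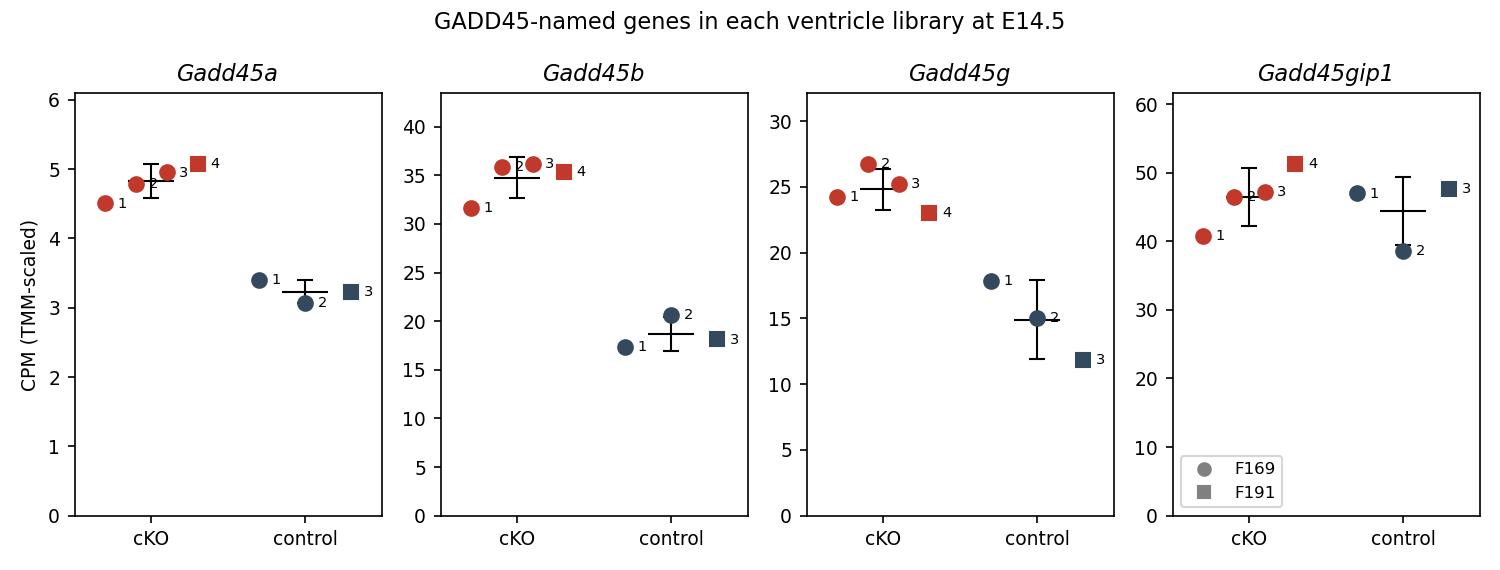
TMM-scaled CPM of the 4 genes in each library (cKO left, control right; numbers are replicates, circles F169, squares F191, bars mean ± SD). Each cKO point of Gadd45a, Gadd45b and Gadd45g lies above each control point, while the points of Gadd45gip1 interleave.

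Levels of different genes were compared as CPM per kilobase of the RefSeq-matched transcript. In cKO libraries the order was Gadd45b (27.1 ± 1.63), Gadd45g (23.2 ± 1.47), Gadd45gip1 (18.6 ± 1.72) and Gadd45a (3.95 ± 0.202; CPM per kilobase, SD, n = 4). Gadd45b and Gadd45g ranges met in cKO (24.7 to 28.2 and 21.5 to 25.0), whereas Gadd45gip1 reached at most 20.6. In control libraries the order was Gadd45gip1 (17.8 ± 2.01), Gadd45b (14.6 ± 1.36), Gadd45g (13.9 ± 2.80) and Gadd45a (2.64 ± 0.136; SD, n = 3), and the ranges of the first 3 overlapped. Gadd45a was far below the other genes in both groups.

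Summed per length over Gadd45a, Gadd45b and Gadd45g, the level was 51.0, 56.9, 55.8 and 53.2 CPM per kilobase in cKO libraries and 33.0, 32.7 and 27.8 in control libraries. Gadd45b made up 48.4 to 51.8% of that sum in cKO and 41.0 to 50.7% in control libraries. Gadd45g made up 40.5 to 44.4% in cKO and 39.8 to 50.6% in control, and Gadd45a 6.89 to 7.80% in cKO and 7.67 to 9.49% in control. The makeup of the sum therefore overlapped between the groups for each gene. With the union of annotated exons as the length, the control share of Gadd45a was 7.00%, against 8.53% with the transcript length. That of Gadd45b was 45.0% (47.0% with the transcript length) and that of Gadd45g 48.0% (44.5%). The order of Gadd45b and Gadd45g in control libraries thus depends on the length used.

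**Figure D3:**
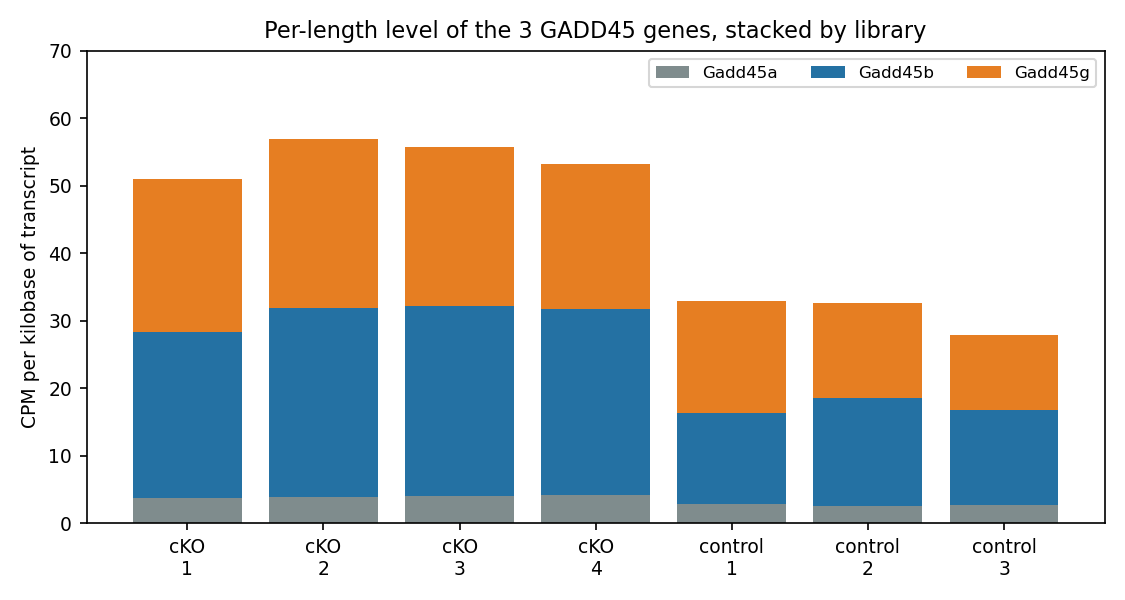
CPM per kilobase of transcript of Gadd45a, Gadd45b and Gadd45g, stacked in each library (4 cKO left, 3 control right). The stacks reach 51.0 to 56.9 in cKO and 27.8 to 33.0 in control, mostly from Gadd45b and Gadd45g in every library.

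The order of the libraries within a group was shared by some of the genes and not by others. Among controls, replicate 1 was the highest for Gadd45g (0.28 above the control mean on the log2 CPM scale) and the lowest for Gadd45b (-0.11). Control replicate 3 was 0.31 below the mean for Gadd45g (a deviation of -0.31) and -0.04 for Gadd45b. The coefficient of variation of Gadd45g in control libraries, 20.1%, was the largest of the 4 genes and compares with 4.28% from counting error. In cKO libraries it was 6.32%, against 3.48% from counting.

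Among cKO libraries, replicate 1 was the lowest for Gadd45a (-0.10), Gadd45b (-0.13) and Gadd45gip1 (-0.18) relative to the cKO mean on the log2 CPM scale. Replicate 4 was the highest for Gadd45a (0.07) and Gadd45gip1 (0.15) and the lowest for Gadd45g (-0.10). Gadd45a and Gadd45gip1 placed the cKO libraries in the same order, lowest in replicate 1 and highest in replicate 4, and both were lowest in control replicate 2 among controls (-0.07 and -0.19). Over all 7 libraries, each gene centred on its own mean, Gadd45a, Gadd45b and Gadd45g differed from one another by a root mean square of 0.191 to 0.207 log2 units. Each differed from Gadd45gip1 by 0.261 to 0.442. These distances hold the difference between cKO and control by which the genes were chosen, so that the 3 genes lie closer to one another than to Gadd45gip1 follows from the choice.

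The choice of genes rests on the contrast of cKO and control, and not directly on differences between title codes or sexes. A call also depends on the spread within groups, so these comparisons are not fully separate from the choice. The cKO effect on log2 CPM was 0.96 in F191 and 0.86 in F169 for Gadd45b, 0.96 and 0.63 for Gadd45g, and 0.64 and 0.55 for Gadd45a. F191 holds 1 library per group. The effects within each code are parts of the contrast by which the genes were chosen, so nothing is read from them. The largest difference between codes was that of Gadd45g, 0.33 (SE 0.162; Benjamini-Hochberg adjusted p = 0.999 in edgeR's interaction test, unadjusted p = 0.0798), and 0 of the 4 genes passed. Over all genes 0.0134% passed this test, so nothing is read from that count.

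Within the cKO group, the 2 Xist-expressing libraries were set against the 2 Y-expressing ones. Gadd45b averaged 35.8 and 33.8 CPM in Xist-expressing and Y-expressing cKO libraries, Gadd45g 24.1 and 25.5 CPM, Gadd45a 5.01 and 4.65 CPM, and Gadd45gip1 49.2 and 43.7 CPM, in that order. Of these differences 0 passed (edgeR, Benjamini-Hochberg adjusted p of 1 for each), beside 0.0672% of all genes, so that count too says nothing of the 4 genes. The largest was 0.17 (log2, SE 0.107) in Gadd45gip1. No control library expressed Xist, so a sex effect within the controls has no value here. The 2 Y-expressing cKO libraries had Gadd45b at 31.7 and 35.9 CPM, against 17.3 to 20.7 CPM in the controls, which are all Y-expressing. They had Gadd45g at 24.3 and 26.8 CPM (controls 11.9 to 17.9) and Gadd45a at 4.50 and 4.79 CPM (controls 3.06 to 3.40). Unlike the comparison within the cKO group, these values belong to the difference by which the genes were chosen, so nothing is read from them.

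**Figure D4:**
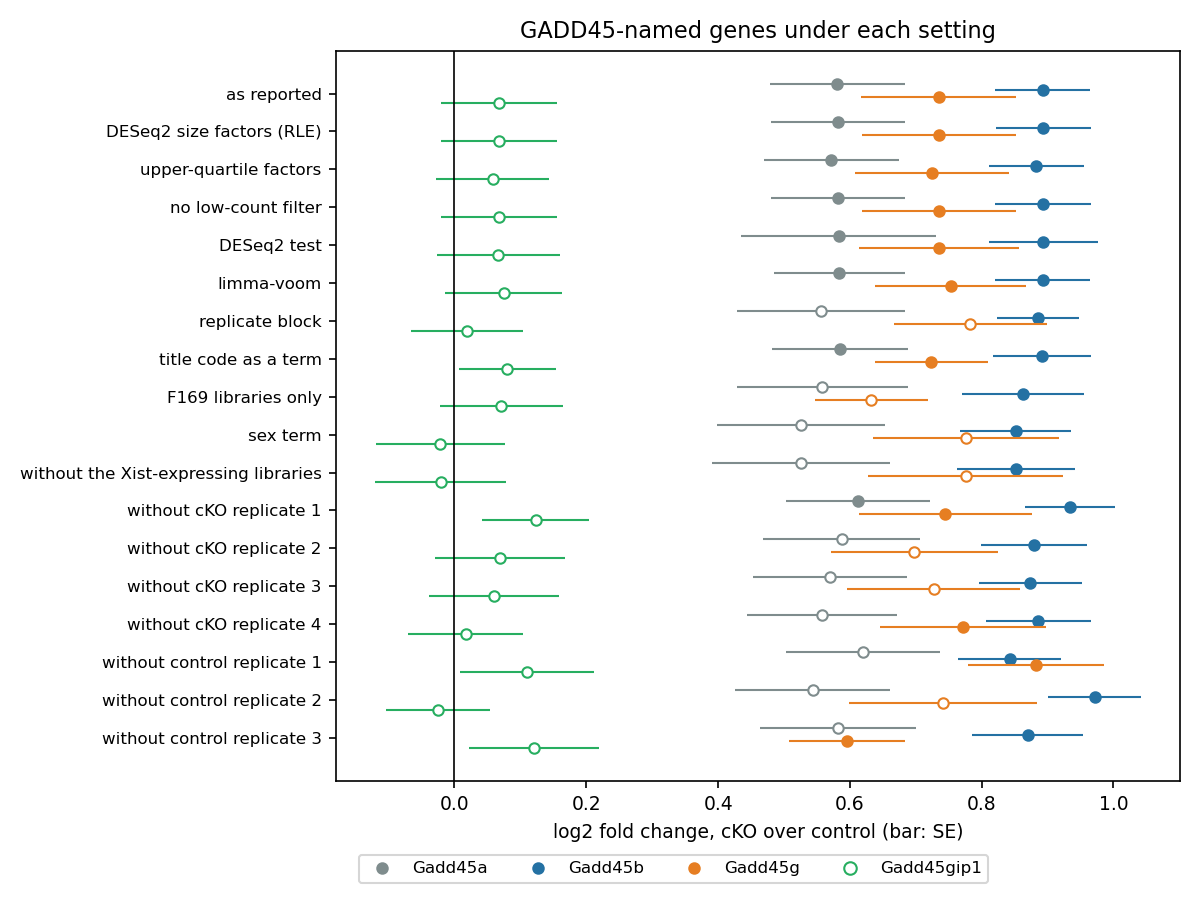
Log2 fold change of cKO over control with its SE for the 4 genes under each processing setting and with each library left out (filled points: adjusted p under 0.05; open points: not called). Gadd45b runs from 0.84 to 0.97 and is filled in every row, while Gadd45a and Gadd45g stay above 0.5 with several open points, and Gadd45gip1 stays near 0.

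The genes whose centred profile over the 7 libraries came closest to Gadd45b, among 12086 genes searched, were Arrdc3, Pmaip1, Mpeg1, Cdkn1a and Slc16a6, at a root mean square difference of 0.122 to 0.152 log2 units. The Gadd45b profile itself varied by 0.452. Arrdc3 is an alpha-arrestin, Pmaip1 encodes the pro-apoptotic protein NOXA, and Mpeg1 is a gene of macrophages. Slc16a6 overlaps Arsg on the opposite strand, so its counts are uncertain. Closest to Gadd45g were Ap1s3, B3gnt5, Arrdc3, Rasl11b and Nppb (0.067 to 0.148), the last encoding the natriuretic peptide BNP. Closest to Gadd45a were Plcg2, Relt, Etv4, Rassf1 and Trim72 (0.0737 to 0.0901). Arrdc3 was the gene named for both Gadd45b and Gadd45g. These likenesses include the difference between the groups.

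Genes with an unadjusted p under 0.05 made up 17.9% of all genes tested, and the list counts at that threshold below are set against it. The lists were chosen with earlier results of these data known, so their counts are a description of these libraries. Of 18 genes of the MAP3K4, p38 and JNK cascade, 0 were called by edgeR or DESeq2 (3 at an unadjusted p under 0.05), with a median log2 fold change of -0.01, as over all genes tested (-0.01). Map3k4, the kinase that GADD45 proteins bind, averaged 78.0 ± 7.35 CPM in cKO and 76.2 ± 1.98 CPM in control ventricle. Map2k7, the JNK kinase that GADD45B inhibits, averaged 65.0 ± 1.61 CPM in cKO and 67.8 ± 3.05 CPM in control. The smallest p-values in the list were those of Mapkapk2, a kinase downstream of p38 (log2 0.12, SE 0.039), and of the scarce p38 isoform Mapk13 (-0.62, SE 0.21), and neither passed over all genes.

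Of the 5 cell cycle partners, 1 was called higher, beside 0.766% of all genes, and 3 had an unadjusted p under 0.05. The called gene was Cdkn1a, which encodes the cyclin-dependent kinase inhibitor p21. Cdkn1a had 45.9, 60.7, 47.9 and 52.9 CPM in cKO libraries, against 29.8, 29.7 and 32.5 CPM in control libraries, without overlap. Its log2 fold change was 0.76 (SE 0.090, edgeR adjusted p = 0.00733). The call was lost within F169 (log2 0.80, adjusted p = 0.0638) and without the Xist-expressing libraries (0.80, adjusted p = 0.075, both by edgeR). Ccnb1, the mitotic cyclin B1, had 174 ± 9.85 CPM in cKO and 148 ± 6.60 CPM in control and did not pass (log2 0.24, SE 0.050, adjusted p = 0.0617 by edgeR). Cdk1 (log2 0.03, SE 0.040) and Pcna (-0.05, SE 0.035), the replication clamp, did not pass either.

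Among 17 DNA demethylation and excision factors, 0 were called by edgeR or DESeq2 (2 at an unadjusted p under 0.05), with a median log2 fold change of -0.01. Tet1 averaged 69.2 ± 3.19 CPM in cKO and 75.4 ± 12.3 CPM in control, and Tet3 155 ± 4.97 CPM in cKO and 152 ± 12.1 CPM in control. The arginine methyltransferase Prmt1 (log2 0.10, SE 0.035) and the glycosylase Mbd4 (-0.18, SE 0.072) had the smallest p-values, and neither passed. Tdg overlaps Gm9855 on the same strand, which had more counts (mean 2433, against 990 for Tdg), so its level is not given.

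Of 20 transcription regulators of GADD45 genes, 0 were called by edgeR (DESeq2 called 2, and 7 had an unadjusted p below 0.05), with a median log2 fold change of -0.01. The smallest p-values were those of Ddit3, which encodes the stress factor CHOP, and of Atf4, a main transcription factor of the integrated stress response. Ddit3 had 10.3 ± 1.18 CPM in cKO and 7.99 ± 0.701 CPM in control (log2 0.38, SE 0.10, adjusted p = 0.107 by edgeR), and it overlaps the more abundant Mars on the opposite strand, so its counts are uncertain. Atf4 had 120 ± 3.77 CPM in cKO and 104 ± 10.3 CPM in control (log2 0.21, SE 0.059, adjusted p = 0.109 by edgeR). Without control replicate 1, Atf4 was called (log2 0.30, adjusted p = 0.0322 by edgeR). Trp53 had a log2 difference of -0.03 (SE 0.040), Rela, an NF-kB subunit, -0.12 (SE 0.053), Smad3, an effector of TGF-beta, -0.05 (SE 0.065) and Foxo3 -0.29 (SE 0.094), and none of them passed.

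Other growth arrest and stress-induced genes held 5 calls among 22, all higher, beside 0.766% of all genes. In this list 12 genes had an unadjusted p under 0.05. The list was chosen with earlier results of these data known, so nothing is read from these counts. The median log2 fold change of the list was 0.19. The calls were Btg3, an antiproliferative factor (log2 0.40, SE 0.035), Cdkn1a, the p53-induced cyclin Ccng1 (0.33, SE 0.043), the secreted stress cytokine Gdf15 (1.78, SE 0.27) and the kinase Plk2 (0.44, SE 0.072), at adjusted p of 0.00223 to 0.0295 by edgeR. Btg3 overlaps Gm7334 on the same strand, which makes its counts uncertain. Cdkn1a is also the call counted among the cell cycle partners. The genes isolated with Gadd45a as growth arrest and DNA damage genes are Ddit3 and Ppp1r15a, which encodes the phosphatase subunit GADD34. Ppp1r15a had 31.4 ± 2.87 CPM in cKO and 26.3 ± 0.828 CPM in control (log2 0.26, SE 0.071, adjusted p = 0.106 by edgeR) and did not pass.

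The number of calls in that list was 3 without cKO replicate 2 or 3, 2 without control replicate 2 or 3, and 1 without the Xist-expressing libraries. Ccng1 lost its call without control replicate 2 (log2 0.33) or 3 (0.32). Gdf15 lost its call without cKO replicate 2 (1.76) or 3 (1.79) and without control replicate 2 (1.65) or 3 (1.56). Plk2 lost its call without cKO replicate 2 (0.43) or 3 (0.44) and without control replicate 1 (0.49), 2 (0.47) or 3 (0.37). Btg3 and Cdkn1a were called in each of the 7 cases.

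Immediate early genes respond to a stimulus without new protein synthesis, and Gadd45b is often placed in this class. Of 24 tested, 3 were called, all higher, beside 0.766% of all genes, and 14 had an unadjusted p under 0.05. The calls were Cyr61, a matricellular protein (log2 1.198, SE 0.11), the AP-1 subunit Fos (1.23, SE 0.13) and the RNA-destabilising factor Zfp36 (0.50, SE 0.098). Summed over the 24 genes, the level was 959 to 1099 CPM in cKO and 841 to 916 CPM in control libraries, without overlap, and the list median was 0.33. Zfp36 lost its call in each of the 7 cases with 1 library left out, from log2 0.39 without control replicate 3 to 0.58 without control replicate 2. The part of this list in the GADD45 values was not tested.

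Of 47 tested partners of GADD45GIP1, nearly all of them proteins of the large mitochondrial ribosomal subunit, 0 were called by edgeR or DESeq2 (6 at an unadjusted p under 0.05). Their median log2 fold change was 0.03, close to the value of Gadd45gip1 itself. Oxa1l, the membrane insertase that receives mitochondrial translation products, had -0.10 (SE 0.035) and Mrpl12 0.11 (SE 0.042), the smallest p-values of the list, and neither passed.

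**Figure D5:**
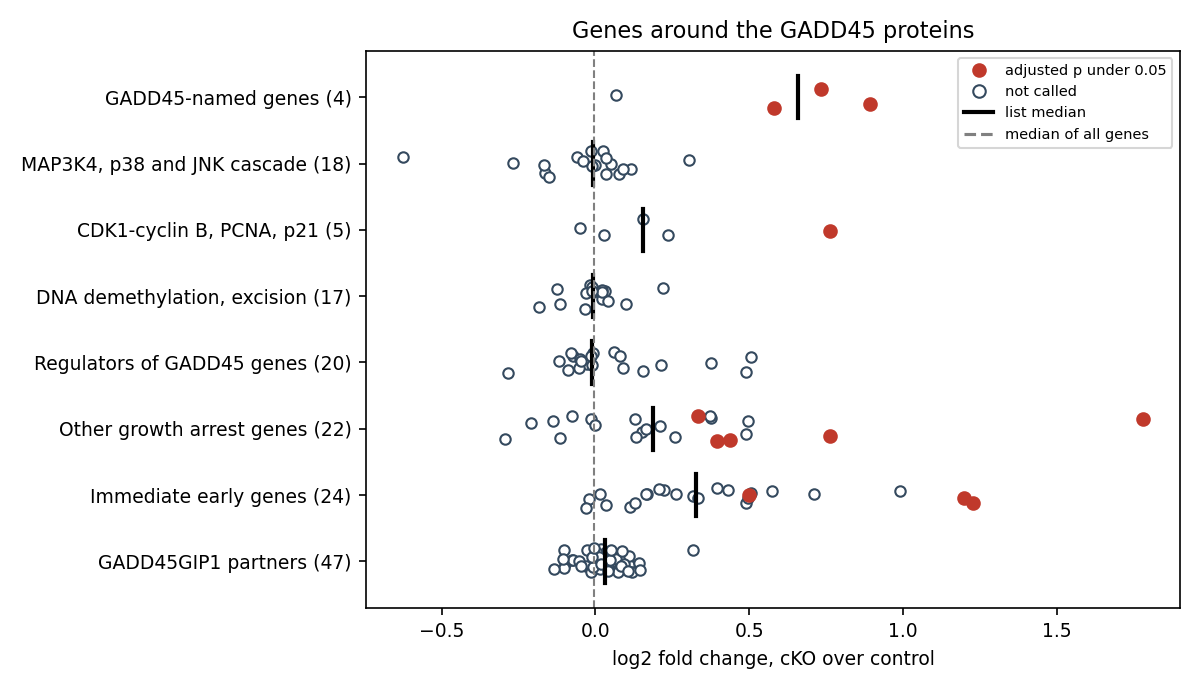
Log2 fold change of cKO over control for the 4 GADD45-named genes and for the tested members of 7 lists (numbers in brackets; filled, adjusted p under 0.05; vertical bar, list median; dashed line, median of all genes). The kinase cascade, demethylation, regulator and GADD45GIP1 lists centre near 0, while growth arrest and immediate early genes centre at 0.19 and 0.33. The lists were chosen with earlier results of these data known.

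Markers of other cell types were read beside these values. The macrophage list had 1 of 10 members called higher by edgeR, beside 0.766% of all genes (DESeq2 called 2). In it 9 had an unadjusted p under 0.05, beside 17.9% of all genes. Its median log2 fold change was 0.37, and its members summed to 142 to 153 CPM in cKO and 128 to 130 CPM in control libraries. Ptprc, which encodes the pan-leukocyte marker CD45, averaged 4.57 ± 0.878 CPM in cKO and 3.36 ± 0.363 CPM in control, and none of the 10 markers was at 0 in any library. The called marker was the complement gene C1qb (12.2 ± 0.227 CPM in cKO, 8.99 ± 1.03 CPM in control), while Mrc1, the mannose receptor, had a log2 fold change of -0.21 (SE 0.051) and did not pass. The 2 tested neural crest and glia markers summed to 6.86 to 7.30 CPM in cKO and 7.98 to 9.85 CPM in control. Lists for endothelium (1449 to 1486 CPM in cKO, 1364 to 1456 CPM in control), smooth muscle and pericytes (1219 to 1838 and 1065 to 1231), epicardium and fibroblasts, atrial muscle and red cells overlapped between the groups and held 0 calls by edgeR (0 to 3 genes per list below an unadjusted p of 0.05; DESeq2 called 1, in endothelium). Mpeg1, which is outside the list and near Gadd45b in profile, averaged 21.6 ± 1.19 CPM in cKO and 13.1 ± 1.37 CPM in control (log2 0.72, edgeR adjusted p = 0.00534). The part of macrophages in the GADD45 values was not tested.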

How the data were processed

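The authors deposited a table of estimated counts per gene, one column per library. Per the submitters' processing notes, STAR 2.4.2a, HTSeq 0.6.1 and mm10 were used, with no role or order given. Of the values, 30.3% were not whole, and they were rounded before the count tests. The last column equals the sum of the 7 libraries in all 15358 genes (tolerance 1e-06), so this 1 column was not used. Genes were filtered with filterByExpr (minimum count 10) and scaled by TMM, and cKO and control libraries were compared with edgeR 4.0.16 (quasi-likelihood test; R 4.3.3), with p-values adjusted by Benjamini-Hochberg across the 14887 genes kept, at 0.05. The SE is the log2 fold change divided by the square root of F. The members and gene lists were chosen with earlier results of these data known. Genes named are the members, Lemd2, sex and tissue markers, up to 6 called genes of each list or otherwise the 2 with the smallest p, and the 5 nearest profiles per GADD45 gene (average log2 CPM of at least 1); other genes named (Map3k4, Map2k7, Cdk1, Pcna, Tet1, Tet3, Tdg, Trp53, Rela, Smad3, Foxo3, Ppp1r15a, Ptprc, C1qb, Mrc1) were picked for their role after values were seen. Alternatives included DESeq2 1.42.0 and limma-voom (limma 3.58.1), and fits by title code and by sex. The labels do not say which embryos share a litter, and p-values reflect variation among these libraries alone, which may be technical in part. The edgeR step was tested on simulated data. Some items are not reported here.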

Additional observations from a re-analysis of the deposited data

How the results depend on the processing

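The number of genes called, 162 as reported, was 637 with the DESeq2 test, 13 with the replicate block, 20 within F169, 20 with the sex term, 17 when the Xist-expressing libraries were dropped, and between 28 and 133 when any single library was. Of the 4 GADD45-named genes, 3 as reported, 1 was called with the replicate block, within F169, with the sex term and without the Xist-expressing libraries, and between 1 and 3 when any single library was dropped. In each of these 4 settings the called gene was Gadd45b. The sex term and the removal of the Xist-expressing libraries estimate the same difference, so these settings are not all separate. Log2 fold changes over 17 alternatives ran from 0.53 to 0.62 for Gadd45a, 0.84 to 0.97 for Gadd45b, 0.60 to 0.88 for Gadd45g and -0.03 to 0.12 for Gadd45gip1, and Lemd2 was called in all of them (-1.19 to -1.01).

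With DESeq2, calls numbered 2 among the cell cycle partners, 2 among the regulators, 8 among growth arrest genes and 6 among immediate early genes. With the replicate block they numbered 0, 0, 1 and 1 in these lists, and within F169 0, 0, 2 and 1. The growth arrest list held 2 calls with the sex term and 1 without the Xist-expressing libraries, where the cell cycle partners held 0. With 1 library left out, the growth arrest list held 2 to 5 calls, the regulators 0 to 1, the cell cycle partners 1 and the immediate early genes 2. The control share of Gadd45a per length was 7.00% with the exon union length, chosen after seeing the data. The cause of these differences was not tested.

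Replicate numbers are shared by the groups, but the labels state no pairing by number. Deviations of same-numbered libraries correlated at 0.0386, -0.0751 and -0.0791 across genes. Those of differently numbered libraries correlated at -0.2 to 0.189, so these values cannot decide whether the numbers pair the samples. Replicate 3 has the code F169 in cKO and F191 in control. With the replicate block, log2 fold changes were 0.56 for Gadd45a, 0.89 for Gadd45b and 0.78 for Gadd45g. For Gadd45a, 115 to 187 counts per library limit the precision. None of 22 results had a library that stood apart within the 4 cKO libraries by Dixon's criterion.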
